A study of Mus musculus with 6 samples.

Results

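Nuclear hormone receptors are transcription factors that small lipophilic ligands can switch: steroids, thyroid hormone, vitamin D, retinoids, fatty acids and oxysterols bind a pocket in the receptor and change which coregulators it recruits at DNA. Many act as pairs with a retinoid X receptor, and others, called orphans, work without a known natural ligand. In bone marrow stroma and bone, vitamin D, sex steroid, glucocorticoid and lipid signals that steer osteoblast and fat cell formation pass through these receptors. Here 37 listed receptor genes of the family were examined in Cxcl12-abundant reticular (CAR) cells, the marrow stromal cells that are the main source of the chemokine CXCL12. Each was identified by its symbol and read from a probe set that names only that gene. One such probe set was found for 36 of the 37, out of 19938 genes with a value, and Nr1h2, the LXR beta gene, was not analysed here.

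The arrays came from CAR cells of femur and tibia marrow, sorted by flow cytometry into cells targeted by Dmp1-Cre (3 arrays) and cells not targeted by it (3 arrays). All mice were C57BL/6, aged 7 weeks, with the genotype Dmp1-Cre Cxcl12-gfp/+, so both groups carried the Cre transgene and 1 Cxcl12 allele with gfp. Dmp1 encodes a matrix protein of late osteoblasts and osteocytes, and its regulatory sequence drives the Cre, so targeted means that a cell or its ancestor had used that sequence. Each array held the cells of 1 mouse per the design text, and the labels do not say whether a replicate number marks the same mouse in both groups. All values are log2 of the deposited RMA intensity, the signal of a probe set after background correction and scaling, and they are not comparable between genes, whose probes differ. Median linear intensities ran from 79.4 to 87.5 over the arrays.

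The labels were checked against markers. Cxcl12 stood at 12.32, 12.22 and 12.40 on the targeted arrays and at 12.32, 12.65 and 12.63 on the arrays of non-targeted cells. Dmp1 stood at 11.28, 10.03 and 9.89 in targeted cells and at 7.51, 6.93 and 6.91 in non-targeted cells. Of 11 CAR cell markers, 11 were above background and 11 were lower in targeted cells (median log2 difference -0.34), while 7 of 7 endothelial markers were below it on every array. Above background were 7 of 9 neutrophil, 4 of 7 erythroid, 4 of 7 B cell and 3 of 8 macrophage markers. So were 3 of 7 osteoclast, 2 of 4 megakaryocyte and 1 of 6 T and NK cell markers, against 54.7% of all genes. Vcam1, on the macrophage list, is also on the CAR cell list. The neutrophil gene S100a8 reached 11.84 in targeted and 11.97 in non-targeted cells. Neutrophil markers set targeted replicate 1 apart: over 9 genes their mean was 6.24 there, 8.12 and 8.92 in the other targeted samples, against 8.54 to 9.27 in non-targeted cells.

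Of the 36 receptors with a value, 23 exceeded background, or 63.9%, against 54.7% of all genes. Background was the 95th percentile of the mean log2 intensities of 1027 olfactory receptor genes, which was 6.43 over the 6 arrays and 6.29 to 6.60 on single arrays. On each array's own background, 21 receptors were above it on all 6 arrays, 10 were below it on all 6, and 5 (Rarb, Nr2c1, Nr2f1, Nr4a2 and Hnf4a) lay on either side. The members just above background were Hnf4a and Nr2c1, both with a mean of 6.60, and the members just below were Nr2f1 at 6.41 and Nr4a2 at 6.22. For most receptor types the subtypes divided. Of the thyroid hormone receptors Thra was above background and Thrb was below it, and of the oestrogen receptors Esr1 was above and Esr2 below. Among the retinoic acid receptors Rara and Rarg were above background while the mean of Rarb was below it, and among the retinoid X receptors Rxra and Rxrb were above and Rxrg below. A probe set below background does not show that its gene is silent. Below background too were Pgr, the progesterone receptor, Ppara, Nr1h4, the bile acid receptor FXR, Rorb, Esrrb, Nr4a3 and Nr5a2.

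**Figure D1:**
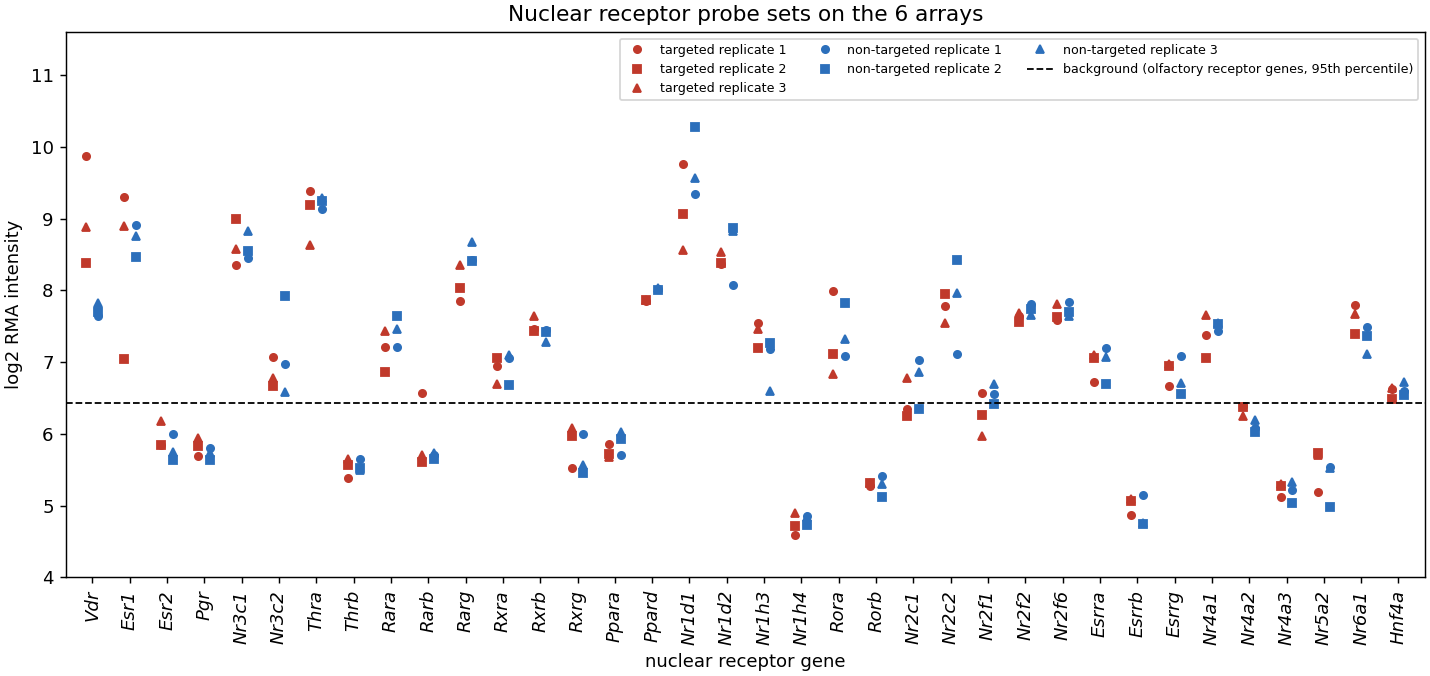
Log2 RMA intensity (vertical axis) of the 36 nuclear receptor genes with a value, for each targeted array (red) and non-targeted array (blue), with marker shapes for replicate numbers and a dashed line at the background of 6.43. Vdr has its 3 targeted arrays above its 3 non-targeted ones, Esr1 has 1 low targeted array at 7.04, and 13 receptors have means below the line.

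The comparison asks how the CAR cells that Dmp1-Cre had targeted differ from the others. Vdr, the vitamin D receptor, showed the largest difference of the 25 receptors tested, 2.50-fold higher in targeted cells, and its groups did not overlap. Rarg, the retinoic acid receptor gamma, was lower in targeted cells without overlap, at a 1.34-fold difference. Neither passed limma's test once adjusted over all 13292 genes tested, and 0 of the 25 receptors did, nor did any other gene (0%). At an unadjusted p under 0.05, Vdr and Rarg were the 2 receptors of 25 (8%), against 4.77% of all genes tested (634 genes, 1.35% higher and 3.42% lower in targeted cells), so the share among receptors rests on 2 genes. The 11 receptors with a mean at or below 6.00 were left out of the test with the 33.3% of genes that were dimmest.

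Because Vdr and Rarg are the receptors with the smallest p-values, the sequence around the start of each is shown. Both lie on the minus strand of chromosome 15 (GRCm38.p6, sequences from RefSeq), and each window holds 250 bases before and 50 after the start site. Capitals mark matches on either strand to AGGTCA, the core motif that many nuclear receptors bind, and to GGGCGG, the GC box bound by factors of the Sp family.
Vdr, chr15:97908247-97908546: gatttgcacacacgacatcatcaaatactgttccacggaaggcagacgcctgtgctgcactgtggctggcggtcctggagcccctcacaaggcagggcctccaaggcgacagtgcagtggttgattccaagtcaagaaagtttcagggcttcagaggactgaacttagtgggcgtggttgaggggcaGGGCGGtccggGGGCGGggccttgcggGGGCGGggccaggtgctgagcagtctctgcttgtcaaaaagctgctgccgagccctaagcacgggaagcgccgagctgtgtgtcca
Rarg, chr15:102257473-102257772: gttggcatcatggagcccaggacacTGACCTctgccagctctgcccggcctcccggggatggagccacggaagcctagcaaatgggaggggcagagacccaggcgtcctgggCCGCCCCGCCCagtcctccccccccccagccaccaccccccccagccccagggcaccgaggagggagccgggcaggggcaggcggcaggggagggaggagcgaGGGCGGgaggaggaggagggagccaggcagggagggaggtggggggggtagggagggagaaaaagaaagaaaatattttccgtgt

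The Vdr window held 3 GC boxes and 0 core motifs, at 61.3% G and C. The Rarg window, 1 of 2 listed for that gene, held 3 GC boxes, of which 2 overlap by 1 base, and 1 core motif that overlaps no GC box, at 70.0% G and C. GC boxes were present in 35.7% of all 32851 promoter windows and in 25 of the 54 windows listed for 35 of the receptors (46.3%). The core motif was present in 16.3% of all windows and in 9 of those 54 (16.7%). These matches are letters in a window, and binding was not measured.

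Vdr binds the active form of vitamin D and, paired with a retinoid X receptor, controls genes of calcium and bone metabolism. Its log2 intensity was 9.88, 8.38 and 8.89 on the targeted arrays, against 7.65, 7.70 and 7.83 on the non-targeted arrays. The lowest targeted array thus lay above the highest non-targeted one, and the targeted arrays spread far more than the others. The group means were 9.05 ± 0.76 for targeted and 7.73 ± 0.09 for non-targeted cells (± SD, n = 3 each). The log2 difference was 1.32 (SE 0.35, 95% interval 0.52 to 2.13), or 1.43-fold to 4.37-fold, with an unadjusted p of 0.00544 and an adjusted p of 0.771 in limma. By p-value Vdr ranked 93 among the 13292 genes. Without targeted replicate 1, which had the highest value, the difference was 0.91, and leaving out other single arrays gave up to 1.66. In bulk RNA of sorted cells, more cells with the transcript and more transcript per cell cannot be told apart.

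Markers of the osteoblast lineage were higher on the same arrays as Vdr. The mean log2 intensity over 8 such genes was 11.12, 10.36 and 10.51 on the targeted arrays and 9.76, 9.75 and 9.64 in non-targeted cells. The 8 include Dmp1, which had the largest log2 difference among them, 3.28, and no mean without it was taken. In the mean over all 8 the targeted arrays ran in the same order as for Vdr, while the non-targeted arrays ran in the opposite order. Mmp13, Wif1, Alpl, Col1a1 and Ibsp had the order of Vdr on the targeted arrays, and Dmp1, Sp7 and Phex did not. Of the 8, 7 were higher in targeted cells, 6 of them without overlap (3.32% of all genes tested were higher without overlap), among them Dmp1, whose sequence drives the Cre, Alpl at 11.76, 10.63 and 11.06 against 10.42, 9.95 and 9.74, and the osteoblast transcription factor Sp7 at 8.63, 8.56 and 8.64 against 8.01, 8.50 and 8.22. Markers of CAR cells went the other way. All 11 were lower in targeted cells, 3 of them without overlap (5.76% of all genes tested were lower without overlap), and none passed. The mean over the 11 overlapped, at 11.48, 11.10 and 11.14 in targeted cells and at 11.40, 11.74 and 11.54 in non-targeted cells. The 3 without overlap were Lepr, the leptin receptor gene, at 12.02, 11.67 and 11.70 in targeted cells and 12.29, 12.29 and 12.28 in non-targeted cells (log2 difference -0.49), Grem1, a BMP antagonist gene (-0.50), and Esm1, the gene of the proteoglycan endocan (-0.48). Neutrophil markers were lowest on the targeted array with the highest Vdr. Among the other targeted arrays, and among the non-targeted arrays, the neutrophil mean was instead higher where Vdr was higher. The part of any of these lists in the Vdr difference was not tested. Among genes that vitamin D is known to induce, 4 of 9 listed had a value and 3 were tested, none of which passed. Tnfsf11, the RANKL gene, stood at 8.70, 8.94 and 8.55 in targeted cells and 9.20, 8.27 and 8.65 in non-targeted cells, with a log2 difference of 0.02. Ank, a pyrophosphate transporter gene, differed by 0.24 and Lrp5, a Wnt coreceptor gene, by 0.06. Cyp24a1, the vitamin D 24-hydroxylase, was not analysed here.

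**Figure D2:**
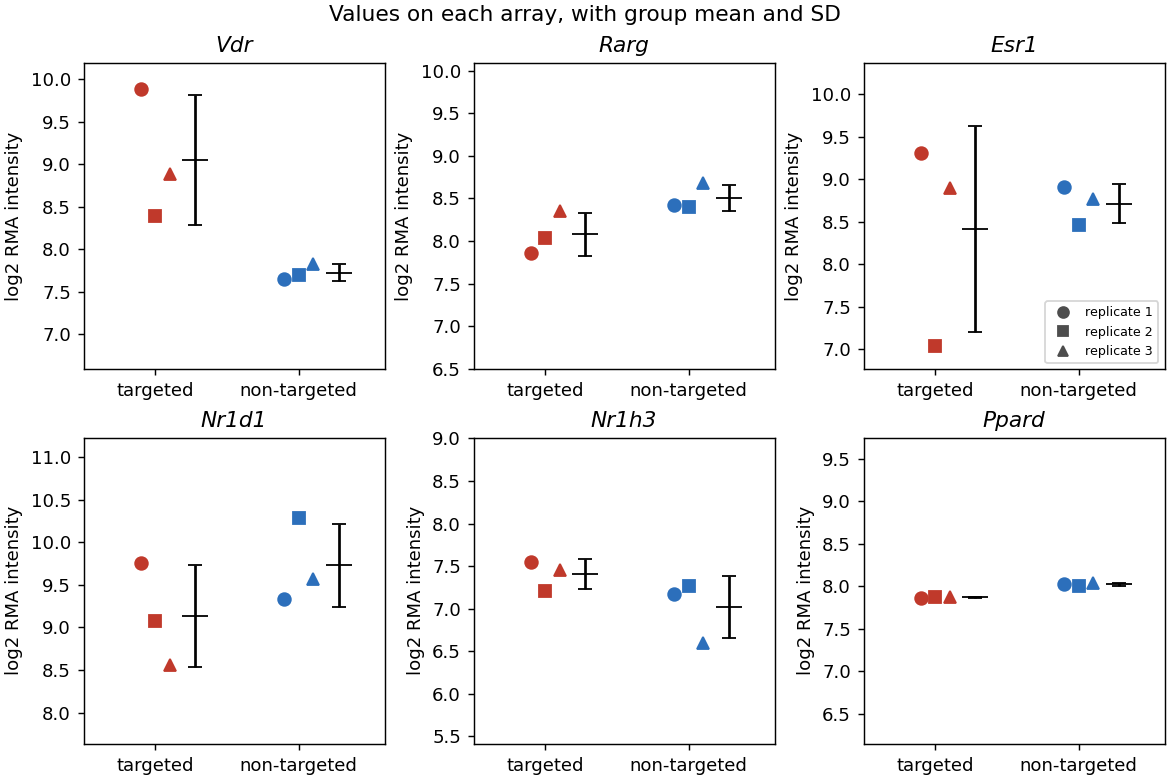
Log2 RMA intensity (vertical axes, each spanning the same width) of 6 receptors on the 3 targeted (red) and 3 non-targeted (blue) arrays, with black bars for the group mean and SD. Vdr, Rarg and Ppard do not overlap between groups, Esr1 has a targeted array at 7.04 below all others, and Nr1d1 and Nr1h3 overlap.

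The steroid receptors gave no difference that held up against the spread of arrays. Esr1, oestrogen receptor alpha, through which oestrogen protects bone, stood at 9.31, 7.04 and 8.90 in targeted cells, against 8.91, 8.46 and 8.76 in non-targeted cells. Targeted replicate 2 lay below all other arrays while replicate 1 lay above them, and the range of 2.27 over the 6 arrays was the widest of any member. The log2 difference was -0.30 (95% interval -1.53 to 0.94), and without targeted replicate 2 it turned to 0.39. Nr3c1, the glucocorticoid receptor, was at 8.35, 8.99 and 8.58 in targeted cells and at 8.45, 8.55 and 8.83 in non-targeted cells. Its difference was 0.03 (interval -0.44 to 0.51), and leaving out single arrays moved it between -0.14 and 0.18. Nr3c2, the mineralocorticoid receptor, was at 7.08, 6.67 and 6.77 against 6.97, 7.92 and 6.58 in non-targeted cells, where replicate 2 alone was high. Its difference of -0.32 turned to 0.06 without that array. Esr2 and Pgr stayed below background on all 6 arrays, at 5.64 to 6.18 and 5.63 to 5.95.

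Among receptors for retinoids and thyroid hormone, Rarg differed most. Rarg, a receptor for retinoic acid that is prominent in skeletal tissue, stood at 7.86, 8.03 and 8.35 in targeted cells and at 8.42, 8.40 and 8.68 in non-targeted cells. All targeted arrays lay below all non-targeted ones, with 8.35 in targeted replicate 3 next to 8.40 in non-targeted replicate 2. The group means were 8.08 ± 0.25 for targeted and 8.50 ± 0.16 for non-targeted cells (± SD, n = 3 each), a log2 difference of -0.42 (SE 0.18, limma unadjusted p = 0.0495, adjusted p = 1.00). Leaving out single arrays moved it between -0.56 and -0.31, and its groups overlapped after quantile normalization. The CAR cell markers Lepr, Grem1 and Esm1 were lower without overlap too, and their part in the Rarg difference was not tested. Rara, the alpha receptor, was at 7.22, 6.86 and 7.43 in targeted cells and at 7.21, 7.64 and 7.46 in non-targeted cells, with overlap and a difference of -0.27 (interval -0.73 to 0.20), which leaving out targeted replicate 2 brought to -0.11 and leaving out non-targeted replicate 2 to -0.16. Rarb, a receptor gene that retinoic acid itself induces, was above background on 1 array only, at 6.57 in targeted replicate 1, with 5.60 and 5.71 in the other targeted samples, against 5.66 to 5.74 in non-targeted cells. Rdh10, an enzyme gene of retinoic acid synthesis, was also highest on that array, at 10.37, with 9.23 and 9.19 on the other targeted arrays and 9.37, 8.92 and 8.85 on the arrays of non-targeted cells (log2 difference 0.55, SE 0.33, adjusted p = 1.00). Other retinoic acid targets were mixed among the targeted arrays. Tgm2, Rarres2, Dhrs3 and Hoxa5 were highest on replicate 1, Stra6, Crabp2 and Cyp26a1 were lowest there, and Cyp26b1 lay between. Cyp26a1 was below background on every array, and Crabp2 was below it on replicate 1. Background itself was lower on that array, at 6.29 against 6.60 and 6.55 on the other targeted arrays, so low values of dim genes there say little.

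The retinoid X receptors, shared partners of Vdr and of the retinoic acid, thyroid hormone, PPAR and LXR receptors, gave differences whose intervals included 0. Rxra was at 6.94, 7.06 and 6.70 in targeted cells and at 7.06, 6.68 and 7.10 in non-targeted cells. Rxrb was at 7.46, 7.44 and 7.64 in targeted cells and at 7.44, 7.42 and 7.28 in non-targeted cells. The differences were -0.04 (interval -0.46 to 0.38) for Rxra and 0.13 (interval -0.21 to 0.47) for Rxrb, whose groups overlapped in both cases. Thra, thyroid hormone receptor alpha, the main thyroid receptor of bone, stood at 9.39, 9.19 and 8.63 in targeted cells and at 9.13, 9.24 and 9.29 in non-targeted cells. Targeted replicate 3 alone was low, and without it the difference of -0.15 turned to 0.07. Thrb was at 5.39 to 5.65 and Rxrg at 5.46 to 6.08 over all 6 arrays, below background.

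Lipid-sensing receptors comprised Ppard and Nr1h3 above background. Ppard, a fatty acid receptor expressed in most tissues, was at 7.86, 7.87 and 7.87 in targeted cells, against 8.02, 8.01 and 8.04 in non-targeted cells. Its range of 0.18 was the narrowest of any member, and the groups did not overlap. The difference was -0.16 (interval -0.46 to 0.15) and did not pass. Its moderated SE, which borrows from other genes, was 0.13, and the SDs within the groups were 0.006 and 0.017. After quantile normalization the groups of Ppard overlapped and the difference was -0.099. Nr1h3, the oxysterol receptor LXR alpha, was at 7.55, 7.20 and 7.46 in targeted cells and at 7.18, 7.27 and 6.60 in non-targeted cells. It overlapped at 1 array and differed by 0.39 (interval -0.11 to 0.89), and by 0.18 without non-targeted replicate 3, its lowest array. Pparg, the receptor that drives fat cell formation, is not among the 37, and it was at 9.11, 8.87 and 8.47 in targeted cells and at 9.89, 9.10 and 8.89 in non-targeted cells (difference -0.48, adjusted p = 1.00). Ppara, at 5.68 to 6.03, and Nr1h4, at 4.60 to 4.90, were below background on every array.

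The clock receptors varied between arrays more than between groups. Nr1d1, the haem-binding repressor REV-ERB alpha of the circadian clock, stood at 9.76, 9.07 and 8.56 in targeted cells, against 9.34, 10.28 and 9.57 in non-targeted cells. Targeted replicate 1 fell inside the non-targeted range and the other targeted arrays below it. The log2 difference of -0.60 (SE 0.35, interval -1.41 to 0.21, unadjusted p = 0.126) was the most negative among the receptors, and was -0.91 without targeted replicate 1 and -0.32 without targeted replicate 3 or without non-targeted replicate 2. Nr1d2, REV-ERB beta, was at 8.37, 8.38 and 8.54 in targeted cells and at 8.08, 8.88 and 8.83 in non-targeted cells, with a difference of -0.17. It was -0.42 without non-targeted replicate 1 (limma unadjusted p = 0.0386, adjusted p = 0.802), -0.025 without non-targeted replicate 2 and -0.048 without non-targeted replicate 3. Rora, an activator that competes with REV-ERB for the same DNA sites, was at 7.99, 7.11 and 6.83 in targeted cells and at 7.09, 7.83 and 7.33 in non-targeted cells. Its difference of -0.10 changed sign without targeted replicate 3 or without non-targeted replicate 2. Of 12 tested clock genes, 9 were lower and 3 higher in targeted cells and none passed. Cry2, a cryptochrome repressor of the clock, was at 6.88, 7.04 and 7.09 in targeted cells and at 7.42, 7.52 and 7.59 in non-targeted cells, without overlap (difference -0.51, SE 0.14, unadjusted p = 0.00832, adjusted p = 0.825). Arntl, the BMAL1 gene and a target of these receptors, overlapped at 7.46, 7.66 and 7.11 against 7.77, 7.42 and 7.73 in non-targeted cells. The hour at which the mice were killed is not given in the sources used here.

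None of the listed orphan receptors with a repressing or developmental role had an interval that left out 0. Nr2f2, COUP-TFII, a repressor of mesenchymal differentiation, was at 7.65, 7.57 and 7.68 in targeted cells and at 7.81, 7.74 and 7.66 in non-targeted cells. Nr2f6, a related repressor, was at 7.59, 7.64 and 7.81 in targeted cells and at 7.84, 7.70 and 7.64 in non-targeted cells. The intervals, -0.43 to 0.22 for Nr2f2 and -0.39 to 0.29 for Nr2f6, were among the narrowest. Nr2f1, COUP-TFI, exceeded background on 1 of 3 targeted arrays (6.57, 6.26 and 5.97) and on 3 of 3 non-targeted arrays (6.55, 6.42 and 6.69), and with its mean below background no fold is given. Nr2c2, the testicular receptor TR4, was at 7.79, 7.95 and 7.54 in targeted cells and at 7.12, 8.42 and 7.96 in non-targeted cells, whose arrays enclosed all targeted values. Its relative Nr2c1, TR2, was at 6.35, 6.25 and 6.78 against 7.02, 6.35 and 6.87 in non-targeted cells, near background. The intervals of both were wider, -0.81 to 0.66 for Nr2c2 and -0.82 to 0.25 for Nr2c1. Nr6a1, the germ cell nuclear factor gene, was at 7.80, 7.40 and 7.67 in targeted cells and at 7.49, 7.37 and 7.11 in non-targeted cells, a difference of 0.30 (interval -0.11 to 0.71).

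The oestrogen-related receptors, which govern mitochondrial genes without binding oestrogen, did not separate the groups. Esrra was at 6.72, 7.05 and 7.10 in targeted cells and at 7.20, 6.70 and 7.08 in non-targeted cells, and Esrrg was at 6.67, 6.95 and 6.97 in targeted cells and at 7.09, 6.55 and 6.70 in non-targeted cells. Of 11 tested genes that these receptors are known to control, 6 were higher and 5 lower. The highest was Pdk4, a kinase gene that restrains glucose oxidation and also a target of PPAR and glucocorticoid receptors, at 9.34, 9.18 and 9.52 in targeted cells and 8.84, 9.10 and 8.74 in non-targeted cells, without overlap (difference 0.45, SE 0.17, adjusted p = 0.970). Nr4a1, the immediate early orphan receptor NUR77, was at 7.37, 7.06 and 7.65 in targeted cells and at 7.43, 7.53 and 7.55 in non-targeted cells. Nr4a2, NURR1, did not overlap between groups, at 6.39, 6.37 and 6.25 against 6.08, 6.03 and 6.20, but it exceeded background on 1 of 6 arrays, with means below it in both groups, and no fold is given. Other immediate early genes, which stress of cell isolation can also induce, were lower for 12 of 14 (median log2 difference -0.24), with Fosb at 10.08, 10.18 and 10.14 in targeted cells and 10.22, 10.88 and 10.62 in non-targeted cells. Hnf4a, known from liver and gut, was at 6.62, 6.49 and 6.65 in targeted cells and at 6.59, 6.54 and 6.72 in non-targeted cells, at the edge of background. Rorb (5.12 to 5.42), Esrrb (4.75 to 5.15), Nr4a3 (5.03 to 5.33) and Nr5a2 (4.98 to 5.74) were below background on every array.

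**Figure D3:**
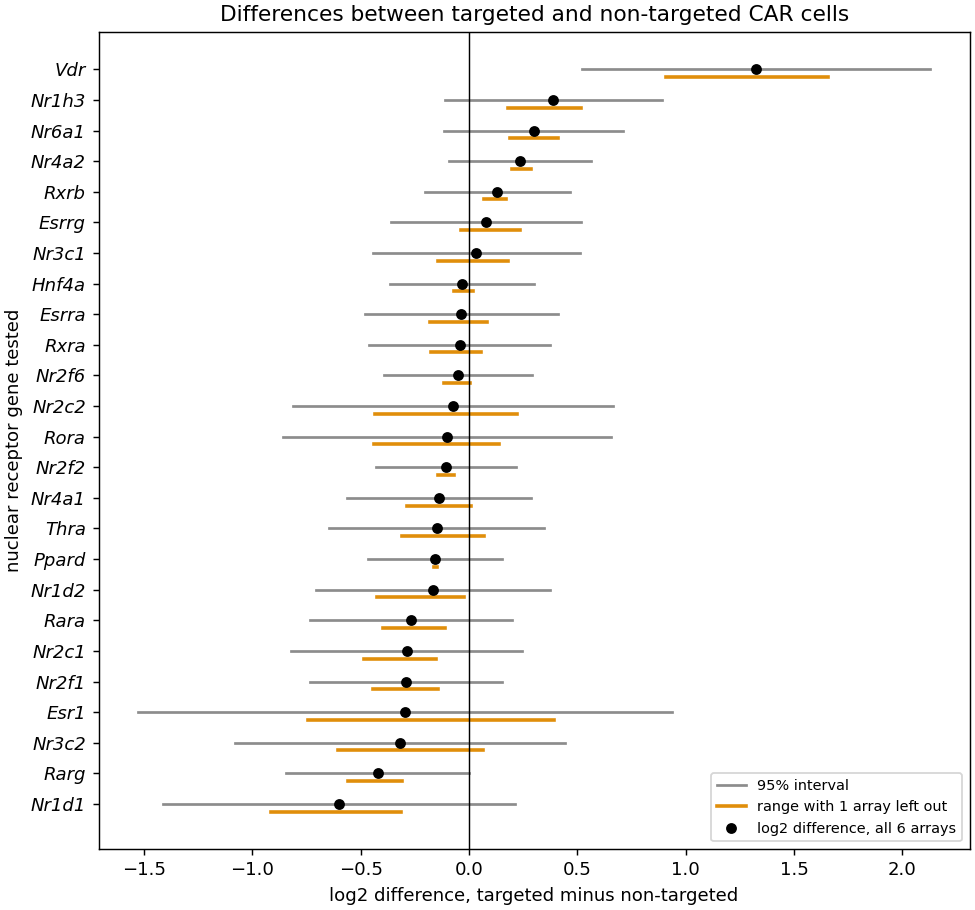
Log2 difference, targeted minus non-targeted (horizontal axis), of the 25 receptors tested, as black points with grey 95% intervals of the limma fit and orange bars for the range when 1 array is left out. The point of Vdr at 1.32 lies apart from the others, which run from -0.60 for Nr1d1 to 0.39 for Nr1h3.

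Across the receptors tested, 7 were higher and 18 lower in targeted cells, with a median log2 difference of -0.10, against a median of -0.01 and 48.9% higher among all genes tested. After quantile normalization 9 of the 25 were higher, and with 1 array left out 8 to 11 were. Without the filter on dim genes 15 of 36 were higher. The groups were without overlap for 4 of the 25 (16%), against 9.07% of all genes tested. Of these, Vdr and Nr4a2 were higher (3.32% of all genes) and Rarg and Ppard lower (5.76% of all genes). After quantile normalization 2 of 25, Vdr and Nr1h3, did not overlap, against 10% of all genes. For 21 of the 25 (84%) the 95% interval lay within 1 of 0, against 86.0% of all genes tested, so that each interval taken alone bounds the difference under 2-fold, and the exceptions were Vdr, Esr1, Nr3c2 and Nr1d1. For 7 of the 25 it lay within 0.5 of 0. The median range over the 6 arrays was 0.76 for the 23 receptors above background and 0.67 for all genes above it.

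Genes through which these receptors act were read from fixed lists. Of 15 tested coactivators, 6 were higher and 9 lower (median -0.15), with Ncoa3 at 7.47, 7.79 and 7.35 in targeted cells and 6.93, 7.38 and 7.03 in non-targeted cells, and Ncoa1 at 7.94, 7.27 and 7.41 against 7.64, 8.14 and 8.20. Both encode p160 coactivators, and both overlapped. Of 8 corepressor genes 2 were higher and 6 lower (median -0.09), and Tbl1xr1, part of the NCoR complex, was at 9.22, 8.41 and 9.47 against 9.56, 9.36 and 9.75 in non-targeted cells. Of 8 chaperones that hold steroid receptors ready for ligand 3 were higher and 5 lower (median -0.09), with Hspa8 at 12.64, 12.81 and 12.74 in targeted cells and 13.01, 13.13 and 13.02 in non-targeted cells, without overlap. Of 17 enzymes, carriers and transporters of ligand metabolism 5 were higher and 12 lower (median -0.04). No gene of these lists passed.

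The target lists gave the same absence of calls. Of 12 glucocorticoid targets 1 was higher, Pdk4, and 11 lower (median -0.21). Of 7 retinoic acid targets 1 was higher and 6 lower (median -0.04), and Tgm2, a transglutaminase gene, was at 9.53, 9.49 and 9.28 in targeted cells and 9.99, 10.41 and 9.86 in non-targeted cells, without overlap (difference -0.65, SE 0.19, unadjusted p = 0.00895, adjusted p = 0.837). Of 8 LXR targets 1 was higher, Nr1h3 itself, and 7 lower (median -0.15), with the desaturase gene Scd1 at 7.56, 8.73 and 8.87 against 8.82, 9.30 and 9.30. Scd1 was lowest on targeted replicate 1, where Nr1h3 was highest. The other tested targets were mixed on that array. Among the targeted arrays, Mylip, Lpcat3, Abca1 and Srebf1 were highest there, and Apoe and Abcg1 were lowest there. Of 9 PPAR targets 2 were higher and 7 lower (median -0.13), and Fabp4, a fatty acid carrier gene, was at 7.61, 7.21 and 6.26 against 8.32, 7.43 and 7.40 in non-targeted cells. Of 6 oestrogen and progesterone targets 4 were higher and 2 lower, with Ccnd1, the cyclin D1 gene, at 8.18, 7.46 and 6.97 in targeted cells and 6.96, 6.94 and 6.78 in non-targeted cells (difference 0.64, SE 0.29, adjusted p = 1.00).

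**Figure D4:**
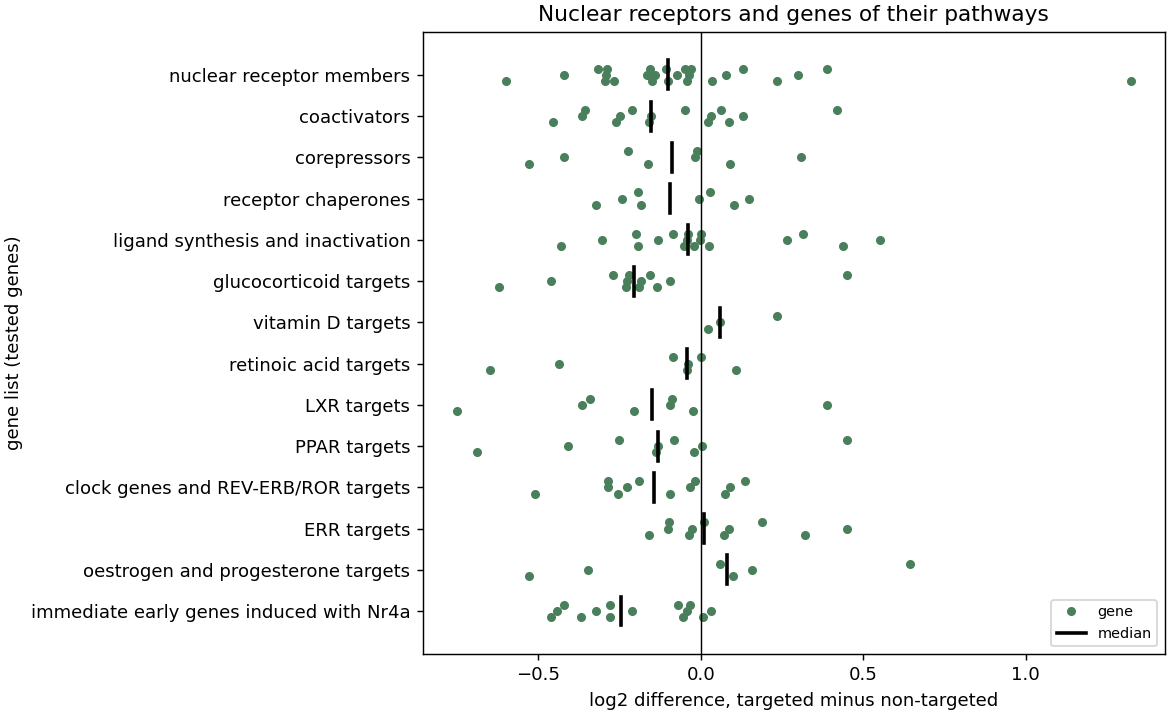
Log2 difference, targeted minus non-targeted (horizontal axis), of each tested gene (points) in the receptor set and in 13 lists of pathway genes (rows), with a black bar at each median. Medians run from -0.24 for immediate early genes to 0.08 for oestrogen and progesterone targets, and no point belongs to a gene that passed the adjusted threshold.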

How the data were processed

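RNA of sorted CAR cells was measured on 6 Affymetrix arrays. The deposited values are probe set intensities on a linear scale, which the authors made with the RMA method; the submitters' processing notes name Affymetrix Expression Console 1.4, and the upstream annotation is not given in the sources used here. Log2 of each intensity was taken. Of 35556 probe sets, 21789 name exactly 1 gene in the platform annotation, and symbols were updated through RefSeq (GRCm38.p6) for 21698 of these. The brightest such probe set over the 6 arrays stood for each gene, and each receptor had only 1. Genes with a mean at or below 6.00, the dimmest 33.3%, were left out, and 13292 were tested in R 4.3.3 with limma 3.58.1 (linear fit and eBayes, no covariate, two-sided), with Benjamini-Hochberg adjustment over all genes tested and a threshold of 0.05. Detection calls were not used, and precision is limited by the number of arrays. By rule, named genes were all 37 receptors, Dmp1 and Cxcl12, and up to 3 genes by smallest p of each list. Genes outside this rule, such as Arntl, Alpl, Sp7, S100a8 and further osteoblast, retinoic acid and LXR genes, were named after the values were seen. The receptors and lists were chosen with earlier results of these data known. Promoter motifs were searched in the RefSeq windows. The fit was tested on simulated data. Alternatives were the dim filter, the scaling, variance settings, array weights, probe set averaging, a replicate block and leaving out single arrays. Whether replicate numbers pair the samples was checked by correlating deviations from the group means. P-values set the group difference against the spread between arrays within the groups, moderated by that of all genes tested. Figures were drawn with matplotlib 3.10.9.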

Additional observations from a re-analysis of the deposited data

How the results depend on the processing

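No receptor passed over all genes under any of the 15 alternatives, and 13 of the 25 receptors kept the sign of their difference in each alternative that tested them; of the 13, Nr2f1 and Nr4a2 were not tested with the lowest 50% of genes left out. Vdr had an unadjusted p under 0.05 in all 15, with adjusted p from 0.178 to 1.00. Over all genes, 1 gene, Dmp1, passed with array weights (limma, adjusted p = 0.0259) and with the replicate block (adjusted p = 0.0153), against 0 otherwise. The count of receptors with an unadjusted p under 0.05 was 2 as reported (4.77% of all genes tested). It was 1 with the lowest 50% of genes left out (5.13% of all genes), with quantile normalization (5.06%) and with an intensity trend and robust variances (4.54%). It was also 1 with the replicate block (4.33%) and with the random replicate block (3.06%), Rarg being the one lost in each case. It was 6 with array weights (24%, when 15.5% of all genes had such a p), and 1 to 3 with 1 array left out. It was 1 without targeted replicate 2 (5.06% of all genes), without non-targeted replicate 2 (3.3%) or without non-targeted replicate 3 (3.08%). Without targeted replicate 1 it was 3 (12%), namely Nr1d1, Nr2f1 and Vdr, when 8.39% of all genes had such a p. Deviations of same-numbered arrays correlated at -0.26, -0.12 and 0.07. Those of differently numbered arrays spanned -0.26 to 0.32, so the check could not decide whether replicate numbers pair the samples.

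Signs changed for 5 differences outside the leave-one-out fits: Nr2c2 at 0.018 and Nr2f6 at 0.0092 with quantile normalization, and Nr3c1 at -0.020, Nr3c2 at 0.037 and Nr2f6 at 0.031 with array weights. With 1 array left out, the differences of receptors that changed sign ran from -0.74 to 0.39 for Esr1, -0.18 to 0.083 for Esrra, -0.036 to 0.23 for Esrrg, -0.071 to 0.021 for Hnf4a, -0.43 to 0.22 for Nr2c2, -0.11 to 0.0061 for Nr2f6, -0.14 to 0.18 for Nr3c1, -0.61 to 0.064 for Nr3c2, -0.28 to 0.0096 for Nr4a1, -0.44 to 0.14 for Rora, -0.18 to 0.056 for Rxra and -0.31 to 0.070 for Thra. Of the receptors that kept their sign, those that moved over 1.5 times ran from -0.91 to -0.32 for Nr1d1, -0.42 to -0.025 for Nr1d2, 0.18 to 0.52 for Nr1h3, -0.49 to -0.15 for Nr2c1, -0.44 to -0.14 for Nr2f1, -0.14 to -0.068 for Nr2f2, 0.19 to 0.41 for Nr6a1, -0.40 to -0.11 for Rara and 0.068 to 0.17 for Rxrb. The cause was not tested. The count above background was 25 and 17 with the 90th and 99th percentile of olfactory receptor genes as background.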
